A study of Mus musculus with 12 samples.

Results

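The genes described here encode the structural proteins of central nervous system myelin, namely Mbp, Mobp, Mal, Cldn11, Cnp, Mag, Mog, Ermn and Opalin. They were taken by symbol from the table of raw counts, as the major proteins of compact and non-compact myelin, and make up 9 of its 24985 genes. The counts come from bulk RNA-seq of polyadenylated RNA from the dorsal hippocampus of 12 wild-type C57Bl6/J mice, dissected from the right hemisphere, which was the injected side. Mice were injected at 6 months of age and killed 6 months later, 24 h after a test of remote memory. There were 4 groups of 3 mice. PBS control mice had a unilateral sham injection of PBS and control chow. PBS acetate mice had the same injection and LabDiet 5001 chow with 5% Na-acetate. Tau control mice had a unilateral injection of 1 µg AD tau, the insoluble tau extracted from the cortex of people with Alzheimer's disease, and control chow. Tau acetate mice had AD tau and the acetate chow. The control chow was of equal calories and carried no added acetate. The seeded tau is a protein, so no transcript checks the injection, and the study described the sequenced mice as representative animals of each group without saying how they were picked.

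Myelin is the stack of membrane that an oligodendrocyte wraps around an axon. In compact myelin the cytoplasm is squeezed out between the membrane layers by small basic proteins, whereas the inner and outer tongues and the paranodal loops keep cytoplasm and hold other proteins, the non-compact set. In the hippocampus the bulk of the myelin lies in the alveus and in the fibre layers that cross it, and mature oligodendrocytes are the main source of these messenger RNAs. In bulk tissue, fewer oligodendrocytes and less RNA per oligodendrocyte cannot be told apart.

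Library totals were 12983233 to 20218340 counts, TMM normalization factors were 0.99 to 1.01, and members had 229 to 73745 counts per mouse, so that counting noise was small beside the spread between mice. All 9 members passed the filter on low counts, which kept 14742 genes, and together they took 0.345% to 0.693% of the counts of a mouse. The mice are labelled male, but Xist, which silences 1 X in female cells, reached 919.8 to 1340 CPM (counts scaled to the depth of each library, after TMM) in the 12 libraries, and not a read was counted on 8 Y-linked genes. The members' source was checked against markers of other cells. The 3 markers of Schwann cells, which make the myelin of peripheral nerves, summed to at most 0.772 CPM. The 4 genes of blood cells were listed at 0 in each library. With no library above 0, these 4 are not taken to show that blood was absent. Nothing in the labels says more of how mice were paired, caged or batched, so a part of cage or batch in the group differences could not be checked. The p-values set differences between groups against the spread of mice within groups, as fitted over the 4 groups.

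The members are spread over 8 chromosomes in GRCm38, with Ermn and Mal both on chromosome 2, and each is a protein-coding gene. Promoter sequence is shown for Mobp, Mag, Cnp and Mog, as 4 of the genes whose level relative to the other members differed between diets in PBS-injected mice, described further on. The 4 were chosen after their values were seen. RefSeq promoter windows (GRCm38.p6, 250 bases before to 50 after a start of transcription) were found for 8 of the 9 members, Mbp being the exception. They were searched on both strands for the words ACAAAG and ACAATG, cores bound by SOX factors such as Sox10, and CTGGCAC and CTGGTAC, the core bound by the myelin regulatory factor Myrf. No SOX word overlaps a Myrf word. The words were chosen after the windows had been read. The following stretches lie upstream of every annotated exon, are read 5′ to 3′ on the strand of the gene, and carry SOX and Myrf words in capitals, on either strand.
Mobp, chr9:120149492-120149706, plus strand: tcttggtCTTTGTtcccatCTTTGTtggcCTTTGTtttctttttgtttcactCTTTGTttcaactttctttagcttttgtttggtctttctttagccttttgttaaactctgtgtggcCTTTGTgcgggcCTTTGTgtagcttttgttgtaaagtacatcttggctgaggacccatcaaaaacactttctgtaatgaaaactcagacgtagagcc
Mag, chr7:30914923-30915102, minus strand: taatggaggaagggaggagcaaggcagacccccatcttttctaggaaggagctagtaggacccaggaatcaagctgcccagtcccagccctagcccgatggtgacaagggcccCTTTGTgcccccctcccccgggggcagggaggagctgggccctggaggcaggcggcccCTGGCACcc
Cnp, chr11:100574724-100574903, plus strand: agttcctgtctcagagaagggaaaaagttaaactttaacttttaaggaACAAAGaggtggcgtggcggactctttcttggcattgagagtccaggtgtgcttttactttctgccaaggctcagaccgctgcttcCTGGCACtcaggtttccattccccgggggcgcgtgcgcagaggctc
Mog, chr17:37023399-37023578, minus strand: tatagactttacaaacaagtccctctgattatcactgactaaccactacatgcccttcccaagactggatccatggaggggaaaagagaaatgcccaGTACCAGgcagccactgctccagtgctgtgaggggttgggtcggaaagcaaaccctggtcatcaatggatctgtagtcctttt

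The Mobp window held 6 SOX words and no Myrf word, and it was the only 1 of 32851 promoter windows with as many SOX words. Since the words were chosen after that window had been read, this rank is a description and no test. A Myrf word was found in 4 of the 8 members with a window, Mag, Cnp, Mog and Opalin, and in 7.1% of all windows. SOX words were found in 5 members, Mobp, Mag, Cnp, Ermn and Opalin, and in 28.6% of all windows. The windows of Mal and Cldn11 held neither. Words for the OLIG E-box and for the TATA box were searched as well. The former was found in 1 member, Opalin, and in 33.4% of all windows. The latter was found in 0 members and in 13.6% of all windows. Each member counted if any of its windows held the word, and the members had 10 windows, 3 of them for Mag. Counts of members and percentages of windows are therefore not on the same footing. A match is a string of letters and not evidence of binding, and no binding was measured here.

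Levels of different genes were compared per kilobase of annotated exon. As means over 12 mice, Mbp, the basic protein that seals the cytoplasmic faces of compact myelin, stood highest at 319 CPM per kb and Mobp, a second basic protein of the same faces, next at 159 CPM per kb. Opalin, a glycoprotein of oligodendrocyte membranes, stood lowest at 7.87 CPM per kb, below Ermn at 26.2 CPM per kb. The order in between was Cnp, Mal, Cldn11, Mag and Mog. Within a mouse each gene stood above the next in all 12 mice, except that Mal stood above Cldn11 in 9 of 12. Between mice the ranges of neighbours overlapped for each pair in that order but Ermn and Opalin. The length used is the union of all annotated exons, which for Mbp, with 16 transcripts, exceeds any single transcript, so that its level per kb is understated. Exons of Mobp share 79 bases with Gm38642 on the same strand. Those of Cnp and Ermn share 154 and 237 bases with Dnajc7 and Galnt5 on the opposite strand, and the counting used strand.

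Among the proteins of compact myelin, Mbp was measured at 3779, 3242 and 3028 CPM in the PBS control mice 1, 2 and 3, and at 2588, 2183 and 1920 CPM in the PBS acetate mice. Its level was 2056, 2010 and 2364 CPM in the tau control mice and 3655, 3316 and 2312 CPM in the tau acetate mice. The PBS control mice were thus all above the PBS acetate and tau control mice, while the tau acetate group held 2 high mice and, in mouse 3, 1 at the level of the tau control group. Mobp was measured at 1668, 1319 and 1248 CPM in PBS control, 1019, 824 and 717 CPM in PBS acetate, 809, 812 and 993 CPM in tau control and 1484, 1277 and 885 CPM in tau acetate mice. The split was that of Mbp, with tau acetate mouse 3 inside the tau control range.

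Cldn11 encodes the claudin that forms the tight junctions between myelin lamellae. It was measured at 216, 175 and 169 CPM in PBS control, 140, 114 and 102 CPM in PBS acetate, 122, 110 and 132 CPM in tau control and 213, 178 and 132 CPM in tau acetate mice. Again PBS control mice lay above both PBS acetate and tau control mice without overlap. Mal encodes a small raft-associated proteolipid of myelin that sorts proteins to the membrane. Its mean was 283 ± 45.4 CPM (SD, n = 3) in PBS control, 198 ± 34.3 CPM in PBS acetate, 188 ± 25.6 CPM in tau control and 269 ± 55.9 CPM in tau acetate mice.

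Among the proteins of non-compact myelin and of its surfaces, Mag, an adhesion molecule of the innermost layer that faces the axon, was measured at 292, 231 and 205 CPM in PBS control and 213, 179 and 154 CPM in PBS acetate mice. It was measured at 158, 147 and 174 CPM in tau control and 303, 251.2 and 182 CPM in tau acetate mice. Here PBS acetate mouse 1 lay inside the PBS control range, and tau acetate mouse 3 lay just above the tau control mice. Cnp encodes a cyclic nucleotide phosphodiesterase that keeps channels of cytoplasm open in the sheath. Its mean was 393 ± 52.6 CPM (SD, n = 3) in PBS control, 293 ± 37.8 CPM in PBS acetate, 273 ± 26.8 CPM in tau control and 392.1 ± 84.0 CPM in tau acetate mice.

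Mog, an immunoglobulin-like protein of the outermost surface of the sheath, had means of 70.7 ± 13.1 CPM (SD, n = 3) in PBS control, 53.2 ± 11.05 CPM in PBS acetate, 46.3 ± 5.81 CPM in tau control and 68.3 ± 16.3 CPM in tau acetate mice. Opalin had means of 27.2 ± 5.64, 21.2 ± 3.33, 18.1 ± 1.96 and 26.2 ± 7.24 CPM in the same order. Both overlapped between PBS control and PBS acetate mice. Ermn encodes an actin-associated protein of the outer tongue made late in the maturation of oligodendrocytes. It was measured at 139, 122 and 108 CPM in PBS control, 89.1, 70.0 and 60.6 CPM in PBS acetate, 74.4, 69.6 and 94.99 CPM in tau control and 119, 120 and 74.7 CPM in tau acetate mice. Its PBS acetate and tau control mice all lay below its PBS control mice.

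**Figure D1:**
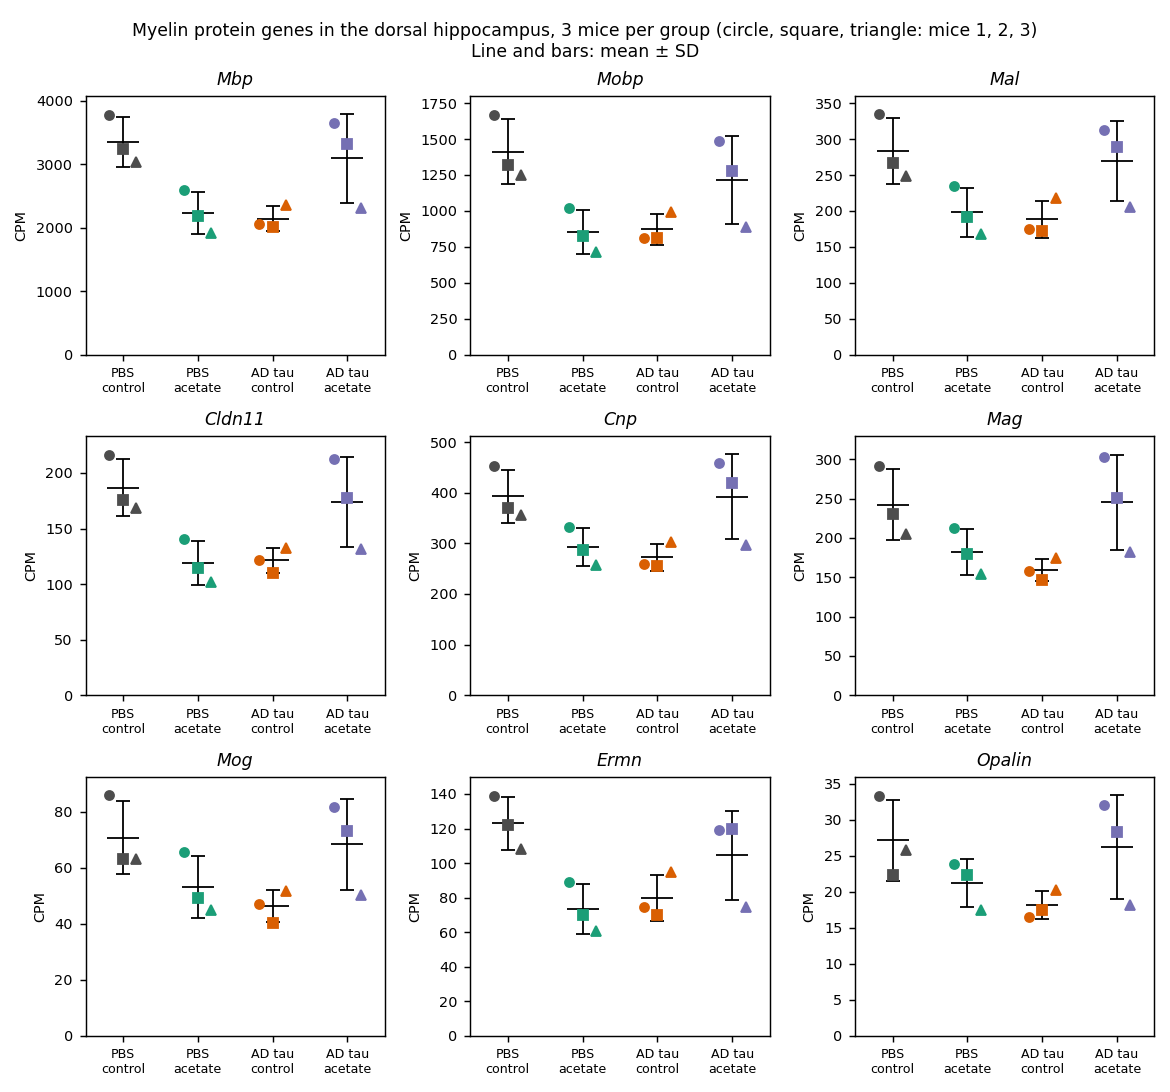
Level of each member in each mouse, in CPM (vertical axes from 0), by injection and diet, with 3 mice per group drawn as circle, square and triangle for mice 1, 2 and 3 and the mean ± SD as a line with bars. Mbp was at 3028 to 3779 CPM in PBS control and 2010 to 2364 CPM in tau control mice, and the triangle of the tau acetate group (Mbp at 2312 CPM) lay low in each panel.

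The members rose and fell together from mouse to mouse. Over the 36 pairs of members, Pearson's r of log2 CPM over 12 mice was 0.85 to 0.99, with a median of 0.96, and after subtraction of group means it was 0.86 to 0.99, with a median of 0.97. These points share a library, so they describe these mice and were not tested. The mean of the members' log2 CPM, each relative to its mean over 12 mice, was 0.56, 0.22 and 0.16 in PBS control mice, 0.02, -0.25 and -0.45 in PBS acetate mice, -0.35, -0.41 and -0.12 in tau control mice and 0.49, 0.33 and -0.21 in tau acetate mice. In tau acetate mouse 3 all 9 members lay below their own mean, and in tau acetate mice 1 and 2 all 9 lay above it. The groups were therefore unequal in spread, and a single mouse set the width of the tau acetate group. The members differed little in how far they moved. The highest level over the lowest was 1.97 for Mbp, and the SD of log2 CPM over the mice ran from 0.31 for Cnp to 0.40 for Mobp and Ermn.

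**Figure D2:**
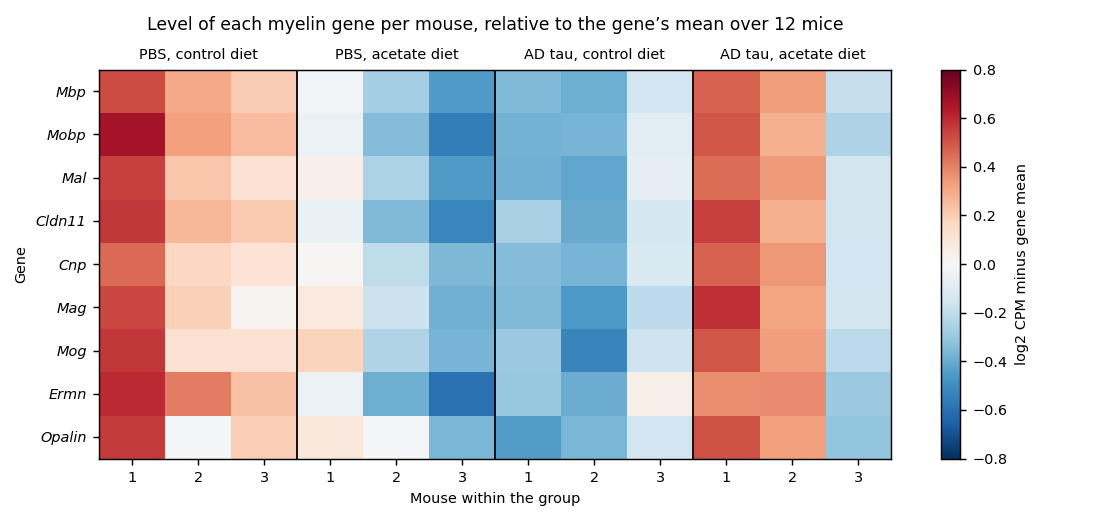
Colour map of log2 CPM minus the mean of the gene over 12 mice, with members as rows and mice 1 to 3 of each group as columns (red above, blue below the mean). All 9 members are red in tau acetate mice 1 and 2, with means of 0.49 and 0.33, and blue in tau acetate mouse 3, with a mean of -0.21.

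On the control diet, which asks what AD tau seeding did in mice on ordinary food, all 9 members had lower means after tau than after PBS, and none passed the adjusted threshold. The 3 tau control mice lay below the 3 PBS control mice for 9 of 9 members, beside 6.84% of all genes tested. By the quasi-likelihood test of edgeR, with p adjusted by Benjamini-Hochberg over all genes, 0 of 9 were called lower at an adjusted p below 0.1, beside 0.0136% of all genes. Unadjusted, 9 of 9 were lower at p below 0.05, beside 4.84% of all genes. Myelination is among the terms that the study drew from the same mice, so these counts are not independent evidence of a direction.

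Log2 fold changes ran from -0.70 ± 0.21 (SE) for Mobp to -0.53 ± 0.17 for Cnp, with a median of -0.62 beside -0.0009 over all genes tested. Mbp was 36.0% lower, at a log2 fold change of -0.64 with a 95% interval of -1.05 to -0.24 and an adjusted p of 0.351 by edgeR. The largest adjusted p, for Opalin, was 0.430 by edgeR. With all 12 mice, a Wald test in DESeq2 called 1 member, Mbp, with an adjusted p of 0.0712, beside 0.472% of genes called lower. edgeR on these 6 mice alone called 2, Mbp and Cldn11, beside 0.224%.

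Markers of other tissue were followed in the same samples. The 4 thalamus markers summed to 58.7 to 182 CPM in PBS control and 25.4 to 58.0 CPM in tau control mice, a median log2 difference of -1.47, and 0 of 4 called by edgeR (2 of 4 at an unadjusted p below 0.05) or by DESeq2, which gave 1 of them no adjusted p. The markers of CA1 pyramidal neurons summed to 445.5 to 575 CPM in PBS control and 593 to 751 CPM in tau control mice, with 0 of 4 called by edgeR or by DESeq2 (2 of 4 at an unadjusted p below 0.05). The part of either in the result was not tested.

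On the acetate diet, all 9 members had higher means after tau than after PBS, the opposite order. No member's groups were apart, beside 7.51% of all genes higher without overlap. Log2 fold changes were 0.31 ± 0.21 (SE) for Opalin to 0.55 ± 0.19 for Cldn11, with a median of 0.45 beside -0.004 over all genes. With edgeR 0 of 9 members were called, beside 0.0882% of genes called higher, and 5 of 9 were higher at an unadjusted p below 0.05, beside 5.5%. DESeq2 called 0 of 9, beside 0.433% of genes. Mbp was 38.7% higher, with a 95% interval of the log2 fold change of 0.07 to 0.88 and an adjusted p of 0.420 by edgeR. For Mbp the overlap came from tau acetate mouse 3 at 2312 CPM and PBS acetate mouse 1 at 2588 CPM. Without tau acetate mouse 1 the log2 fold change was 0.13 for Opalin, 0.22 for Mog and 0.25 for Mag, against 0.31, 0.37 and 0.43 with all mice. Opalin was at 0.19 without PBS acetate mouse 3 and at 0.51 without tau acetate mouse 3.

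Some markers of other cells also had higher means in this comparison, though 0 of the choroid plexus, microglia and astrocyte lists were called by edgeR. At an unadjusted p below 0.05, 3 of 5 choroid plexus, 5 of 8 microglia and 2 of 6 astrocyte markers were higher, and DESeq2 called 2, 1 and 2 of them. Microglial markers summed to 423.6 to 443 CPM in PBS acetate and 450.5 to 529 CPM in tau acetate mice. Choroid plexus markers summed to 64.4 to 81.2 CPM and 79.3 to 477 CPM, and their median log2 difference was 2.22. The part of these markers in the members' result was not tested.

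**Figure D3:**
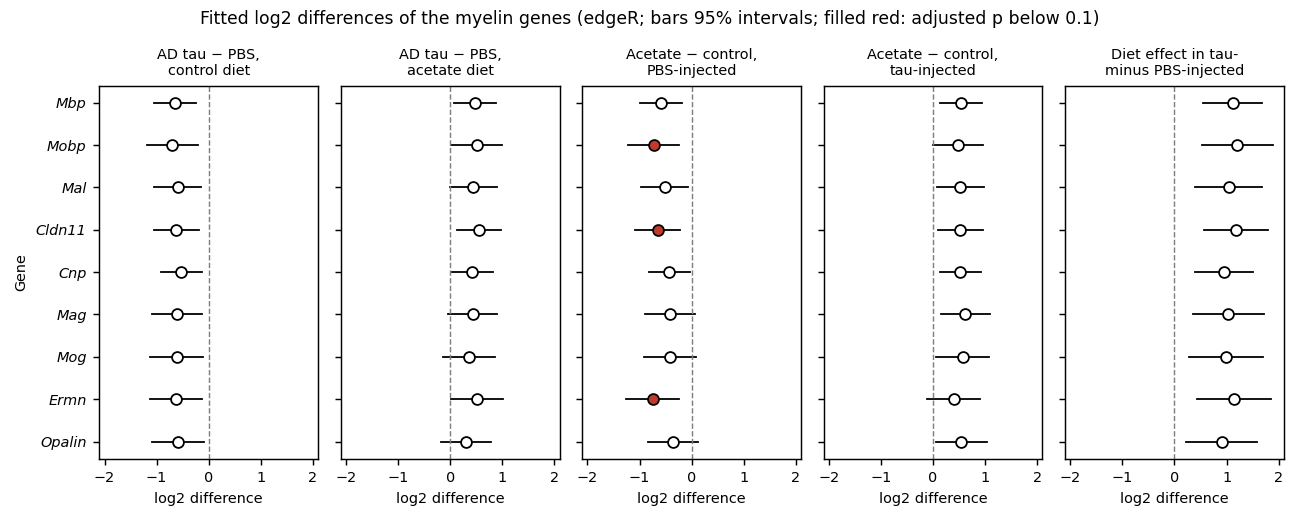
Fitted log2 differences of the 9 members in 5 comparisons (panels), with 95% intervals as bars, from edgeR over 12 mice, and filled red circles where the adjusted p was below 0.1. The points lie left of 0 for tau on control chow and for acetate in PBS-injected mice and right of 0 elsewhere, and only Mobp, Cldn11 and Ermn in PBS-injected mice are filled.

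Acetate chow was compared with control chow in PBS-injected mice, the comparison of diet without tau. All 9 members had lower means with acetate, and 3 of them fell past the threshold by edgeR, beside 4.85% of all genes called lower. These were Ermn, with a log2 fold change of -0.75 ± 0.22 (SE) and an adjusted p of 0.0982, Mobp, with -0.73 ± 0.21 and an adjusted p of 0.0981, and Cldn11, with -0.65 ± 0.19 and an adjusted p of 0.0934. Mbp missed the threshold at -0.59 ± 0.18 with an adjusted p of 0.104. Mag, Mog and Opalin had the smallest differences, at -0.41, -0.42 and -0.36, each with a 95% interval that included 0. Without PBS control mouse 1 these were -0.25, -0.24 and -0.18.

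The PBS acetate mice lay below all PBS control mice for 6 of 9 members, Mbp, Mobp, Cldn11, Ermn, Mal and Cnp, beside 13.2% of all genes, and 6 of 9 were lower at an unadjusted p below 0.05, beside 10.8%. The median log2 fold change was -0.52 beside 0.004 over all genes tested. The 3 calls lay close to the threshold. None of the 9 was called without a filter on low counts, beside 2.76% of genes, or without any one of PBS control mouse 1, 2 or 3, PBS acetate mouse 1, 2 or 3, tau control mouse 1 or 2, or tau acetate mouse 2. Without tau control mouse 3, 1 was called, and without tau acetate mouse 3, 5 were called, beside 4.6% of genes. On these 6 mice alone edgeR called 5 members, beside 5.67%. DESeq2 called 4 members lower, Cldn11, Mobp, Ermn and Mbp, with an adjusted p of 0.0183 to 0.0257, beside 5.4% of genes.

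The same comparison moved markers of neuron fields. The 4 CA1 markers summed to 445.5 to 575 CPM in PBS control and 702 to 927 CPM in PBS acetate mice, with 3 called higher (Fibcd1, Pou3f1 and Mpped1). The 6 CA3 markers summed to 1892 to 2123 CPM and 1533 to 1784 CPM, with 4 called lower (Iyd, Grik4, Nptx1 and Cpne4). Of the thalamus markers, Tnnt1 was called lower at a log2 fold change of -2.42, with sums of 36.6 to 48.0 CPM for the 4 markers in PBS acetate mice. Its 2 groups overlapped, its log2 fold change was -1.26 without PBS control mouse 2, and edgeR's adjusted p was 0.143 with no filter and 0.266 on the 6 mice alone. Among astrocyte markers Slc1a3 and Aldoc were called higher, at 0.23 and 0.20, and Aqp4 lower, at -0.20 (-0.12 without PBS control mouse 2, where it was not called). Folr1 of the choroid plexus was called lower at -1.73. Of the 12 fits that left out a mouse, these marker calls held in 2, for Tnnt1, to 11, for Nptx1. The part of these markers in the members' result was not tested.

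In tau-injected mice, where the study asked whether acetate acted on the response to tau, all 9 members had higher means with acetate than with control chow. The log2 fold change ran from 0.39 ± 0.22 (SE) for Ermn to 0.62 ± 0.21 for Mag, with a median of 0.52 beside 0.0008 over all genes. edgeR called 0 of 9, beside 0.0407% of all genes called higher, and DESeq2 called 0 as well, beside 0.862%. Unadjusted, 7 of 9 were higher at p below 0.05, beside 5.47%. Only for Mag did the 3 tau acetate mice all lie above the 3 tau control mice, beside 6.66% of all genes. Mag was 53.8% higher, with a 95% interval of the log2 fold change of 0.14 to 1.10 and an adjusted p of 0.348 by edgeR. Without tau acetate mouse 3, which lay low for all members, edgeR called 3 members higher (Mbp, Cnp and Opalin), beside 0.396% of genes. Without tau acetate mouse 1 the log2 fold change of Mobp was 0.32, against 0.48 with all mice.

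Thalamus markers overlapped between these groups, with sums of 25.4 to 58.0 CPM in tau control and 35.3 to 48.4 CPM in tau acetate mice. Striatal markers summed to 53.2 to 63.4 CPM and 64.1 to 69.96 CPM, and astrocyte markers to 2030 to 2279 CPM and 2230 to 2297 CPM. Of these, 2 of 4 and 3 of 6 were higher at an unadjusted p below 0.05, and 0 of either list were called by edgeR or by DESeq2, which gave 3 striatal markers no adjusted p. Their part in the members' result was not tested.

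The difference between the diet effects in tau-injected and PBS-injected mice tests whether acetate acted differently after tau. It was positive for all 9 members, from 0.90 ± 0.31 (SE) for Opalin to 1.21 ± 0.30 for Mobp on the log2 scale, with a median of 1.04 beside -0.005 over all genes. The 95% interval excluded 0 for each member, and 9 of 9 had an unadjusted p below 0.05, beside 6.76% of all genes with a positive difference. After adjustment edgeR called 0 of 9, beside 1.11% of all genes. The adjusted p was 0.104 for Mbp and 0.105 for Cldn11 by edgeR, close to the threshold, and at most 0.245, for Opalin.

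DESeq2 called all 9, with an adjusted p of 0.00341 for Mbp and 0.0864 for Mog, beside 2% of genes. The call thus depends on the tool. It depends also on 1 mouse, since edgeR called all 9 members without tau acetate mouse 3, beside 2.23% of genes, and 0 of 9 in each of the other 11 fits that left out a mouse. Since the diet and tau comparisons reuse the same 12 mice, their opposite signs are not separate pieces of evidence. Thalamus and CA1 markers had median differences of 1.33 and -0.42 in this comparison, and 0 of either list were called by edgeR or by DESeq2 (1 of 4 and 2 of 4 at an unadjusted p below 0.05). Choroid plexus and CA3 markers had medians of 1.12 and 0.43. Of 5 choroid plexus and 6 astrocyte markers edgeR called 1 each, Folr1 and Aqp4, and DESeq2 called 1 and 2. Of 6 CA3 markers edgeR called 0 and DESeq2 called 1. The part of all these markers was not tested.

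The means of tau acetate mice were near those of PBS control mice for all members. Log2 fold changes lay between -0.24 for Ermn and 0.02 for Mag, with a median of -0.07 beside 0.003 over all genes. No member's groups were apart, beside 10.2% of genes lower and 9.29% higher without overlap, and edgeR called 0 of 9, beside 1.21% of genes called lower and 0.617% called higher. No member reached an unadjusted p below 0.05, and DESeq2 called 0, beside 4.67% of genes lower and 2.69% higher. The intervals were wide. The 95% interval was -0.52 to 0.29 for Mbp, -0.70 to 0.27 for Mobp and -0.73 to 0.26 for Ermn. On control chow the tau and PBS groups differed by -0.70 for Mobp and -0.63 for Ermn. A difference as large as that was thus not excluded for Mobp and Ermn. In this comparison 4 of 4 CA1 markers were higher and 4 of 6 CA3 markers lower at an unadjusted p below 0.05, with 0 called by edgeR and 4 and 1 by DESeq2, which gave 1 CA3 marker no adjusted p, and their part was not tested.

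Beside that common movement, the ratios between members also differed. For each mouse the log2 level of a gene was taken relative to the mean of the other 8 members. This removes a shared movement in full only for a member that moves as far as the others. Over all mice, the slope of a member on the mean of the others was 1.13 for Mobp, 1.08 for Ermn and 1.04 for Cldn11. It was 0.87 for Cnp, 0.91 for Opalin, 0.97 for Mag, 0.98 for Mog and Mal and 0.998 for Mbp. The part of these unequal slopes in the ratios was not tested. In PBS-injected mice the ratio to the other members did not overlap between diets for 7 of 9 members. No such share was computed for ratios of other genes, and in plain CPM 13.2% of all genes were lower and 13.1% higher without overlap in this comparison. The ratio was lower with acetate for Mobp, at 0.10 to 0.12 with control chow and -0.11 to -0.08 with acetate, for Cldn11, at 0.01 to 0.05 and -0.11 to -0.08, and for Ermn, at 0.04 to 0.21 and -0.17 to -0.08. It was higher with acetate for Mag, at -0.16 to -0.03 and 0.06 to 0.09, and for Cnp, Mog and Opalin. The ratios of Mbp and Mal overlapped between diets.

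The genes with a lower share were thus the 3 called lower, 2 of them genes of compact myelin and its junctions, and those with a higher share were the 4 whose windows held a Myrf word. This grouping was noticed in the same mice and was not tested. The 3 with a lower share also had the highest slopes on the other members. The words were chosen after the windows were read, and the grouping was made after the ratios were seen. It was thus open to selection on both sides. Mbp had no window, and the Myrf word of Opalin begins 36 bases after its start of transcription. The ratios of a mouse are not independent, since the members' shares sum to a constant. In tau-injected mice the ratio of each member overlapped between diets. Between tau acetate and PBS acetate mice Mog and Opalin had a lower and Mobp and Cldn11 a higher ratio without overlap. Between tau control and PBS control mice Mobp had a lower and Cnp a higher ratio without overlap, and the others overlapped. No share over ratios of other genes was computed for either comparison, so these are descriptions only.

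**Figure D4:**
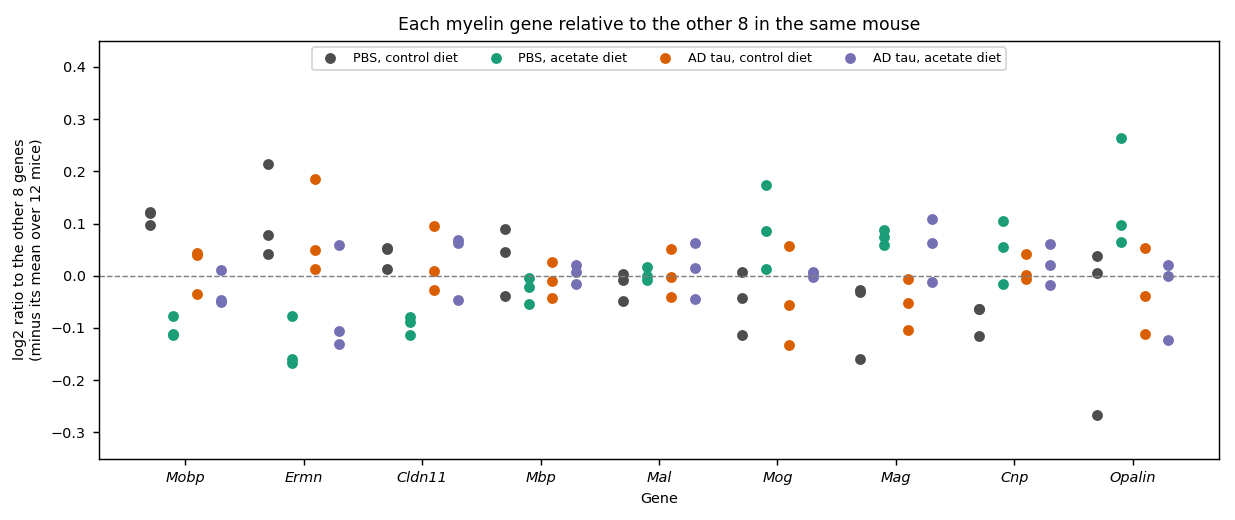
Log2 ratio of each member to the mean of the other 8 in the same mouse, relative to its own mean over 12 mice (vertical axis), by gene and group, 1 point per mouse. In PBS-injected mice Mobp was at 0.10 to 0.12 with control and -0.11 to -0.08 with acetate chow, whereas Mbp, at -0.04 to 0.09 and -0.05 to -0.004, overlapped between diets, as did Mal.

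Over all 14733 other genes tested, 118 had an r above 0.9 with the mean of the members over 12 mice. Among the 5 most alike were Plekhb1 (r = 0.991), Trf (r = 0.989), the iron carrier transferrin, Bcas1 (r = 0.986) and Tspan2 (r = 0.986), a tetraspanin of oligodendrocytes. All points share their libraries. A list of 20 other genes of myelin and mature oligodendrocytes, among them enzymes of myelin lipids, connexins and transcription factors, was followed beside the members. On the control diet all 20 were lower with tau, with a median log2 fold change of -0.55 and 0 called by edgeR (20 at an unadjusted p below 0.05, 10 called by DESeq2). Gjb1, the connexin of gap junctions in the sheath, had the largest difference at -0.79 ± 0.18 (SE) with an adjusted p of 0.265 by edgeR.

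In PBS-injected mice all 20 were lower with acetate, and 7 fell past the threshold by edgeR, beside 4.85% of all genes called lower. They included Fa2h, the enzyme that hydroxylates the fatty acids of myelin lipids, at -0.67 ± 0.15 with an adjusted p of 0.0379, Gjb1 at -0.72 ± 0.17 with 0.0408 and Plekhb1 at -0.46 ± 0.12 with 0.0605, all by edgeR. Ugt8a, which makes galactosylceramide, had the largest difference at -0.84 ± 0.24. Of the 12 fits that left out a mouse, the call held in 5 for Ugt8a, 8 for Fa2h and Plekhb1 and 10 for Gjb1. With no filter on low counts, edgeR's adjusted p was 0.1296 for Ugt8a and 0.1115 for Plekhb1. With a replicate block it was 0.1269 for Ugt8a. In tau-injected mice all 20 were higher with acetate, with a median of 0.48 and 0 called by edgeR (15 at an unadjusted p below 0.05, 6 called by DESeq2, which gave 6 others no adjusted p).

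The difference between diet effects was positive for all 20, with a median of 1.06. DESeq2 called 18, beside 2% of genes. By edgeR 6 were called, beside 1.11% of all genes called higher, against 0 of the 9 members. Those with the smallest p were Nkx6-2, a transcription factor of oligodendrocytes, at 1.07 ± 0.21 with an adjusted p of 0.0435, Gjb1 at 1.35 ± 0.25 with 0.0466, Fa2h at 1.21 ± 0.21 with 0.0466, and Tmem125 at 1.09 ± 0.24 with 0.0560. Gjb1 stood at 17.4 to 23.3 CPM in PBS control, 10.9 to 13.5 CPM in PBS acetate, 9.95 to 13.3 CPM in tau control and 13.1 to 21.9 CPM in tau acetate mice. Its lowest tau acetate mouse thus lay below the highest tau control mouse. That these genes passed and the members did not was not itself tested, and the sizes of the difference overlap, 0.90 to 1.21 for members and 0.87 to 1.35 for the called genes.

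Genes of earlier stages were followed by 2 lists. The 6 markers of oligodendrocyte precursor cells (OPC) summed to 124 to 132 CPM in PBS control, 126 to 137 CPM in PBS acetate, 129 to 145 CPM in tau control and 137.5 to 149.5 CPM in tau acetate mice. In PBS-injected mice acetate went with higher Cspg4 and lower Gpr17, a receptor of committed precursors, which had a log2 fold change of -0.31 ± 0.09 and an adjusted p of 0.0484 by edgeR. Cspg4, the proteoglycan NG2 of precursors and pericytes, was also higher in tau acetate than in PBS control mice. The log2 fold change was 0.33 ± 0.09 with an adjusted p of 0.0944 by edgeR. That call held in 2 of the 12 fits that left out a mouse, and the call of Gpr17 in 7. Mean Cspg4 was 18.5 CPM in PBS control, 22.6 CPM in PBS acetate, 23.1 CPM in tau control and 23.3 CPM in tau acetate mice.

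Of the 3 markers of newly formed oligodendrocytes, only Enpp6 was called in the difference between diet effects. Its diet effects differed by 1.40 ± 0.33 with an adjusted p of 0.0803 by edgeR, whereas Bmp4 and Itpr2 were not called (0 of both at an unadjusted p below 0.05). The summed markers of microglia ran from 422 to 444 CPM in PBS control and 423.6 to 443 CPM in PBS acetate mice. Those of astrocytes ran from 2028 to 2113 CPM and 2081 to 2281 CPM, with 2 of the 6 called higher and 1 lower in this comparison by edgeR.

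**Figure D5:**
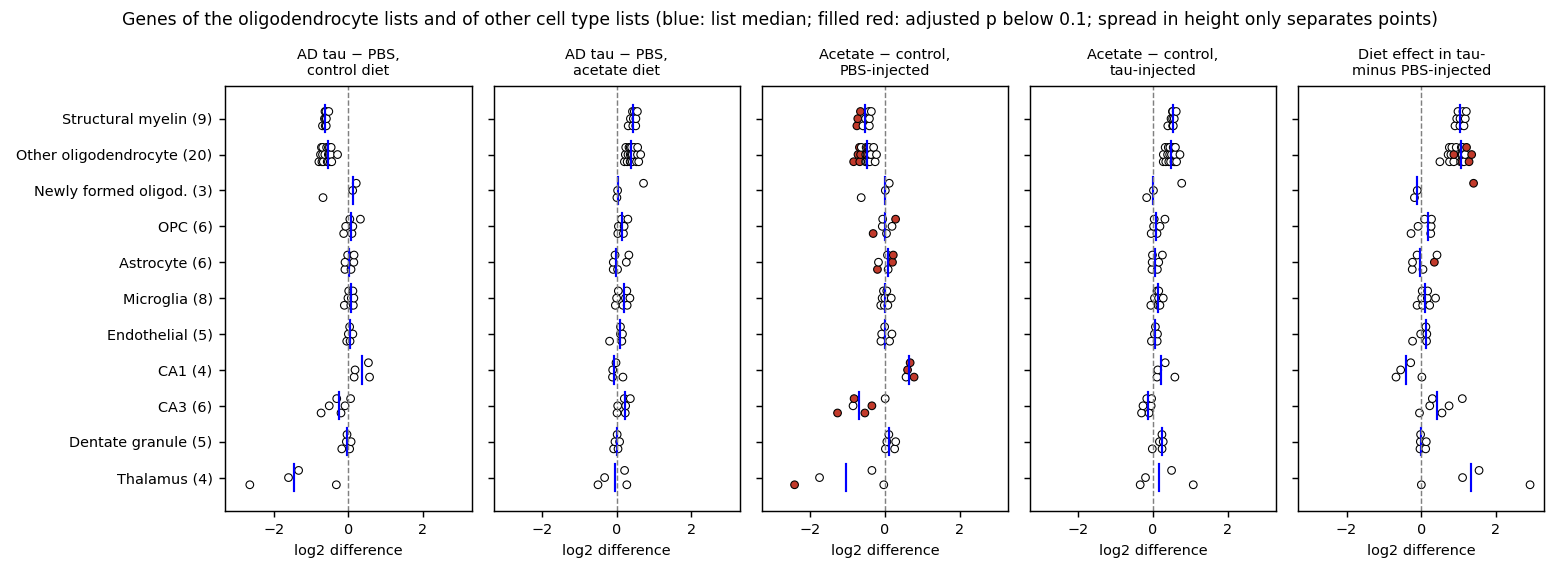
Fitted log2 differences of the genes of the lists drawn (rows, number of genes tested in brackets) in 5 comparisons (panels), 1 point per gene, with the list median in blue and filled red points where edgeR's adjusted p was below 0.1. Choroid plexus, meningeal and striatal markers were tested too but are not drawn. The choroid plexus median was 2.22 for tau on the acetate diet and 1.12 for the difference between diet effects. The 9 structural myelin genes and the 20 other oligodendrocyte genes have medians of -0.62 and -0.55 in the first panel and of 1.04 and 1.06 in the last. Medians of OPC, astrocyte and microglia markers lie near 0. Those of thalamus markers are -1.47 in the first panel and 1.33 in the last, those of CA3 markers -0.26 and 0.43, and those of CA1 markers 0.355 and -0.42.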

How the data were processed

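The authors aligned reads to GRCm38 with STAR 2.5.2a, handled alignments with SAMtools 1.1, counted exonic reads per gene with HTSeq 0.9.1, set to reverse-stranded, and deposited those raw counts without normalization. The labels name a directional library kit. No column of samples was left unused. Groups and replicate numbers come from the sample titles. From these counts, genes were kept by filterByExpr (minimum count 10, minimum total 15), scaled by TMM and fitted by the robust quasi-likelihood F test of edgeR 4.0.16 (R 4.3.3, limma 3.58.1), with 4 group means over 12 mice and 8 residual degrees of freedom. Benjamini-Hochberg adjustment ran over 14742 genes, with calls made at an adjusted p below 0.1. The common biological coefficient of variation was 7.25%. CPM are scaled by TMM, and log2 CPM used a prior count of 2. With 3 mice against 3, an exact permutation test of a single value cannot go below 0.1 (two-sided), so none is given. No pair of mice of a group agreed within counting noise. Replicate numbers did not pair the mice.

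Members and lists were chosen with earlier results of these data known. Besides the members, the text names, by rule, the 4 smallest p past the threshold and the largest change on 3 oligodendrocyte lists (other myelin and oligodendrocyte, newly formed oligodendrocyte, OPC), the 5 genes most alike (1 of them not reported here) and markers of other cells past the threshold. Lists for Schwann, astrocyte, microglia, endothelial, meningeal, choroid plexus, CA1, CA3, dentate granule, thalamus, striatum and blood cells were also summed. Alternatives were size factors of DESeq2 in edgeR, no filter, the Wald test of DESeq2 1.42.0 (its adjusted p kept as NA where it gives none), an adjusted p below 0.05, a replicate block, the 6 compared mice only and each mouse left out. Positions are from GENCODE M21, with 24542 of 24985 symbols matched. The functions were tested on simulated counts. Other experiments of the study were not analysed here.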

Additional observations from a re-analysis of the deposited data

Results flagged for a closer look

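None of the 9 members met a rule for a closer look, and groups of 3 mice are too small for a test of outlying samples. The genes below were named beside the members and had diet effects that differed by injection in edgeR's interaction test, at an adjusted p below 0.1. On the log2 scale the difference was 1.072 for Nkx6-2, 1.351 for Gjb1, 1.213 for Fa2h, 1.094 for Tmem125, 1.402 for Enpp6 and 0.8732 for Plekhb1, all genes of the oligodendrocyte lineage. It was 0.3506 for Aqp4, the water channel of astrocytes, and 2.921 for Folr1, a marker of the choroid plexus at 0.383 to 4.24 CPM. Each of the 8 lost its call without PBS acetate mouse 2, where edgeR's adjusted p ran from 0.146 to 0.234. Nkx6-2 lost it also without tau acetate mouse 1, and Gjb1 and Fa2h without tau control mouse 2. The other 5 lost it in 4 to 9 of the 12 fits that left out a mouse.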

How the results depend on the processing

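Members kept their direction under every alternative except in tau acetate against PBS control mice. No result changed its side of the threshold with DESeq2's size factors. At an adjusted p below 0.05, 0, 0, 541, 3, 43 and 108 genes were called in the comparisons of tau on control diet, tau on acetate diet, acetate in PBS mice, acetate in tau mice, the difference between diet effects and tau acetate against PBS control (2, 20, 1303, 9, 230 and 270 at 0.1), and 0 members in acetate in PBS mice. Without a filter 0 members were called there, and 37 and 56 genes in tau on acetate diet and acetate in tau mice. DESeq2 called 86, 112, 175, 434 and 644 genes, in the same order without acetate in PBS mice, with 1 member in the first, 9 in the difference between diet effects and 4 in acetate in PBS mice. With the 6 compared mice alone edgeR called 35 genes and 2 members in tau on control diet, 5 members in acetate in PBS mice and 2 genes in acetate in tau mice. The cause of these shifts was not tested.

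Same-numbered mice did not deviate together (r of -0.09 to 0.14, 2 of 15 pairs above 0.1). With a replicate block 9 genes were called in tau on control diet. In the difference between diet effects 349 genes were called, 256 of them higher, and 6 members, all higher. In acetate in PBS mice 4 members were called. No share of all genes is given for these fits, so the counts of members are descriptions only.

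With each mouse left out, genes called ran from 0 to 16, 0 to 93, 15 to 1425, 1 to 66, 8 to 442 and 0 to 358 in the order above. The highest counts fell without tau acetate mouse 3 in tau on control diet, acetate in tau mice and the difference between diet effects. They fell without tau acetate mouse 2 in tau on acetate diet, and without tau control mouse 2 in the other comparisons. The lowest fell without PBS acetate mouse 2 in acetate in PBS mice and in the difference. In tau acetate against PBS control mice the lowest fell without tau acetate mouse 3. In the remaining comparisons several fits shared the lowest count. Members called ran from 0 to 5 in acetate in PBS mice, 0 to 3 in acetate in tau mice and 0 to 9 in the difference, each highest without tau acetate mouse 3.

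In tau acetate against PBS control mice 0 members were called in any fit, and signs moved. For Cnp the log2 fold change was 0.005147 with no filter. With each mouse left out it ran from -0.2433 to 0.06271 for Mbp, -0.1916 to 0.1335 for Mog, -0.1547 to 0.1976 for Mag, -0.1234 to 0.1656 for Cnp, -0.2627 to 0.06912 for Cldn11, -0.2248 to 0.1519 for Opalin and -0.1855 to 0.09171 for Mal, lowest without tau acetate mouse 1 and highest without tau acetate mouse 3.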

Other observations

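Markers of other cells were summed in each of the 12 mice. Endothelial markers summed to 156.9 to 191.4 CPM, dentate granule markers to 348.9 to 585 CPM and striatal markers to 53.2 to 69.96 CPM. Meningeal markers summed to 41.1 to 52.9 CPM in PBS control, 42.9 to 45.9 CPM in PBS acetate, 52.0 to 65.1 CPM in tau control and 42.7 to 72.8 CPM in tau acetate mice. Choroid plexus markers summed to 64.4 to 202 CPM in 11 mice and to 477 CPM in 1 tau acetate mouse. For the choroid plexus marker Folr1 the difference between diet effects was 2.15 without tau acetate mouse 3 and 3.33 without tau acetate mouse 2. After subtraction of group means, the mean log2 level of each list was set beside that of the members. The r ran from -0.66 for choroid plexus to 0.99 for other myelin and oligodendrocyte genes. The part of choroid plexus in the members' result was not tested. Microglial markers summed to 431 to 483.5 CPM in tau control mice.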
